A study of Mus musculus with 3 samples.

Results

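Melanotrophs are the endocrine cells of the intermediate lobe of the pituitary. They are described here as 1245 barcodes of the control library, WT, which held 2020 barcodes of the 9661 in all 3 libraries. A barcode stands for 1 captured droplet, and melanotrophs were chosen by 2 measured values. Pomc had to make up 5% or more of its unique molecular identifiers (UMIs, each counting 1 captured RNA molecule) and the barcode had to hold 2 or more Pcsk2 UMIs. These barcodes were 61.6% of the WT barcodes (exact 95% Clopper-Pearson interval 59.5 to 63.8%). The comparison group is the other 775 WT barcodes.

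Intermediate lobes (ILs) were dissected from tamoxifen-treated mice that were 3 months old, dissociated with papain, and profiled by droplet-based 3′ single cell RNA sequencing, with 1 library for each genotype. WT animals were Sox9iresCreERT2/+, P27NULL animals were Sox9iresCreERT2/+;p27-/-, and S2CK animals were Sox9iresCreERT2/+;Sox2fl/+;p27-/-. All 3 groups thus carried the tamoxifen-inducible Cre inserted at Sox9, a gene active in stem cells (SCs), and the controls carried it too. The methods also name a Rosa26ReYFP reporter. The WT library pooled the lobes of 2 males, whereas the P27NULL and S2CK libraries each pooled male and female animals, in numbers not given in the sources used here. Sex and genotype thus cannot be told apart between WT and the other libraries. The labels place tamoxifen gavage at 4 weeks of age, whereas the text of the study places Cre induction at birth. With 1 library a genotype there is no replicate, so every interval given covers counting error alone and no test between conditions was possible.

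POMC is a precursor protein. In melanotrophs the prohormone convertase PC2, encoded by Pcsk2, cuts it into small peptides that include α-melanocyte stimulating hormone and β-endorphin, which are stored in dense-core granules. The transcription factor Pax7 sets the melanotroph fate apart from that of the other Pomc cell, the corticotroph, which uses PC1/3 (Pcsk1) to make adrenocorticotropic hormone. Melanotrophs are electrically active and are innervated by hypothalamic neurons that hold secretion down through dopamine and GABA.

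The 250 bases before the RefSeq start sites of Pomc and Pcsk2 are shown because these are the genes on which the cells were selected. Both are taken from RefSeq on GRCm38.p6 and read on the + strand. Capitals mark matches to the core promoter box TATAAA and the E-box CANNTG, searched on both strands.
Pomc, chr12:3954695-3954944: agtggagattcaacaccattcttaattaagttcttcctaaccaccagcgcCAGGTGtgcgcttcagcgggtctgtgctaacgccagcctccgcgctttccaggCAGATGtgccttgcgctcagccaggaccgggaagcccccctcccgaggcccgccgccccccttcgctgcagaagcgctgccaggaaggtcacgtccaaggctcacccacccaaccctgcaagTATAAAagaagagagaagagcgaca
Pcsk2, chr2:143545883-143546132: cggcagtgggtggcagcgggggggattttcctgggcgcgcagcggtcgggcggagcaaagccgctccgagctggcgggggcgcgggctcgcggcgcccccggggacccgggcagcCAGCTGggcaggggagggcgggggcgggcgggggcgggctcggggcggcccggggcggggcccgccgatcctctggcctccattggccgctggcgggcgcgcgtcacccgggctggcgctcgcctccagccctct

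The Pomc window held TATAAA from base -25 and E-boxes from bases -200 and -147, counted back from the start site, and the Pcsk2 window held an E-box from base -135. TATAAA was in 12.4% and CANNTG in 66.2% of all 32851 windows of this length. Neither window held the letters TCACACC (3.33% of windows), TGACGTCA (1.55%) or TAATCC (6.25%), the further motifs searched. A match is a description of letters and not a binding site.

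Depth differed between the groups. The melanotrophs held 6169078 UMIs, 74.0% of the WT total, with a median of 4298 UMIs and 1620 genes a barcode against 2008 UMIs and 1063 genes in the other barcodes. The lowest melanotroph had 546 UMIs and 213 genes. The median mitochondrial share was 5.34% in melanotrophs and 4.85% in the others. Only 2 barcodes of WT were shared with P27NULL and 4 with S2CK. The same rule found 3481 of 4153 barcodes in P27NULL and 2968 of 3488 in S2CK.

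Pomc and Pcsk2 are the values that chose the cells, and they are given as a description. Pomc made up 14.7% of a melanotroph's UMIs at the median, with a range from 5 to 67.9%, against a median of 0.258% in the other barcodes. Pcsk2 gave a median of 17 UMIs a melanotroph, from 2 to 124.

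Few barcodes lay near the limits of the rule. There were 22 melanotrophs with Pomc between 5 and 6% of UMIs, and 10 barcodes with 2 or more Pcsk2 UMIs lay just outside with Pomc between 4 and 5%. Pax7, in counts per 1000000 UMIs (CPM) over the summed barcodes, was at 251 CPM just inside and at 238 CPM just outside. Oacyl was at 450 CPM inside and 119 CPM outside. At the other limit, 32 melanotrophs held 2 Pcsk2 UMIs, with Oacyl at 175 CPM, and 18 barcodes outside had Pomc at 5% or more with 1 Pcsk2 UMI, with Oacyl at 139 CPM.

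**Figure D1:**
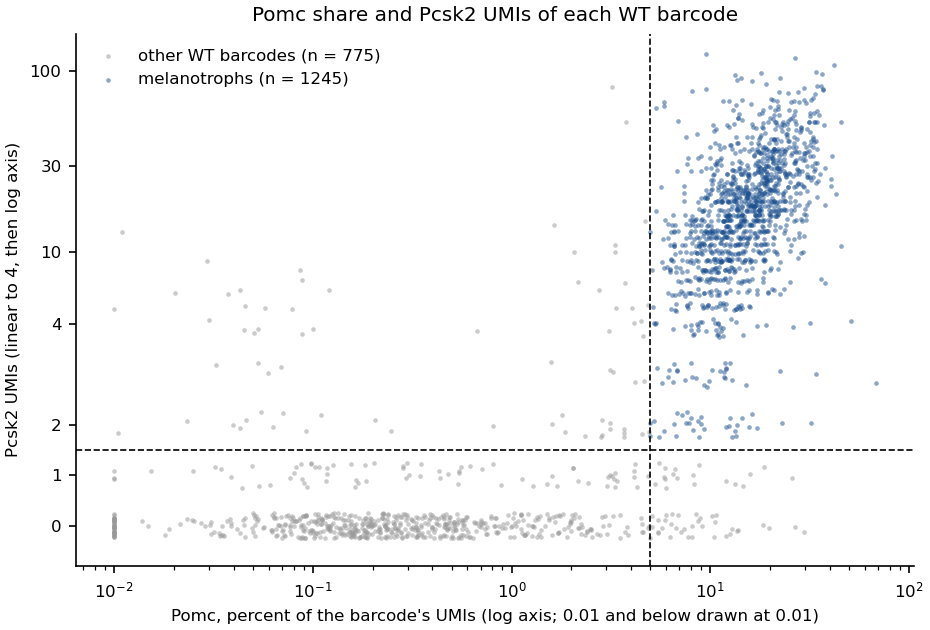
Each point is 1 WT barcode, with Pomc as a percent of its UMIs on the x axis and its Pcsk2 UMIs on the y axis (vertical jitter added), and dashed lines mark the limits of the rule. The 1245 melanotrophs form 1 dense group right of 5% and above the line, and most of the 775 other barcodes held no Pcsk2 UMI and Pomc below 1%.

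The label was set beside 6 melanotroph markers that the rule did not use. These markers were chosen with earlier results of these data known, so their values describe the cells and do not test the label. Pax7, Oacyl, Megf11, Rbfox3, Drd2 and Esm1 were all more than 2-fold higher in the melanotrophs than in the other WT barcodes. The median melanotroph held UMIs of 3 of the 6, and 69 melanotrophs (5.54%) held none, whereas 86.8% of the other barcodes held none. Oacyl, an acyltransferase-like gene, was detected in 60.3% of the melanotrophs after every barcode had been thinned to 2000 UMIs. The share was 1.96% in the 51 endothelial, immune and connective tissue barcodes of that depth, which should lack it. For Pax7 these shares were 30.8% and 1.96%, and for Esm1 they were 31.8% and 1.96%.

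Markers of other cell types were scarce. Of the melanotrophs, 33 (2.65%) held 3 or more UMIs from 2 or more markers of another type, 13 of them stem cell markers and 13 macrophage markers. None did so for endothelial markers, which 79 of the other barcodes carried. Corticotroph and red blood cell markers reached this level in 0 and 1 of the other barcodes, so that finding none among the melanotrophs carries no information. The corticotroph receptor Crhr1 was at 6.81 CPM in the melanotrophs and 12.02 CPM in the other barcodes, and Neurod1, a corticotroph factor, had 4 UMIs in all 1245 melanotrophs. No doublet caller was applied. Leaving out the 33 barcodes gave 504 genes higher and 1173 lower in the comparison below, against 506 and 1178 with them.

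The other 775 barcodes are a mixture. By markers of a single type, 118 carried stem cell, 113 macrophage, 70 endothelial, 47 Pou1f1-lineage, 45 gonadotroph, 32 connective tissue, 29 T and NK cell and 15 pituicyte markers. A further 274 carried markers of none and had a median Pomc share of 1.49%. The 92 barcodes with Pou1f1-lineage or gonadotroph markers are called anterior lobe endocrine barcodes below and give another, narrower comparison between hormone cells.

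Across genes, the melanotrophs stood highest above the other WT barcodes in genes such as Gulo, Oacyl and Pax7, and lay furthest below them in genes such as Tshb, Prl and Gh, which encode hormones of other lineages. Of 9916 genes with 50 or more UMIs in both groups together, 506 were at 2-fold or more higher in the summed melanotrophs (5.1%) and 1178 at 2-fold or more lower (11.9%). The median gene had a log2 ratio of -0.11. For 166 genes the whole counting interval lay above 2-fold, and for 720 it lay below. Pomc alone took 174236 CPM of the melanotroph total, which lowers every other gene's CPM. With Pomc, mitochondrial and ribosomal protein genes left out of the totals, the median log2 ratio of all genes moved from -0.11 to 0.22 and the calls were 934 higher and 845 lower, so that 52.5% of calls were higher instead of 30.05%. All ratios below are on the full total.

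The 15 highest ratios, among genes with 200 or more UMIs, belonged to Gm13017, Pcsk2, Gulo, Klk1, Oacyl, Klk1b26, Arpp21, Pomc, Sema3e, Egr4, Aloxe3, Enc1, Gabra2, Pax7 and Drd2. Gulo (14:65986786-66009254 on GRCm38.p6), the last enzyme of vitamin C synthesis, had 614 UMIs in melanotrophs and 13 in the others, that is 99.5 and 6.01 CPM, a log2 ratio of 4.05 (95% interval 3.26 to 4.97). Pax7 (4:139737059-139833530) was at 180 and 22.2 CPM, a log2 ratio of 3.02 (2.60 to 3.47). Oacyl was at 587 and 40.7 CPM (3.85, interval 3.55 to 4.17). All 3 stood far above the comparison barcodes and lay past 2-fold over their whole intervals.

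Gm13017 (4:140390410-140396917), a predicted gene on the chromosome that also holds Pax7, was at 52.4 and 2.31 CPM. Klk1 and Klk1b26 are members of the kallikrein protease cluster and were at 52.7 and 43.4 CPM in melanotrophs and at 3.24 CPM each in the others, but their near-identical sequences share reads and their separate values are uncertain. Arpp21, a cyclic AMP-regulated phosphoprotein, had a log2 ratio of 3.71 (2.65 to 5.04), and Sema3e, a secreted guidance cue, one of 3.38 (2.38 to 4.61). Aloxe3, a lipoxygenase, and Enc1, an actin-binding protein of neurons, were at 33.7 and 86.7 CPM in melanotrophs and at 3.70 and 10.2 CPM in the others.

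The 10 lowest ratios belonged to Tshb, Igfbp3, Prl, Hbb-bs, Egfl7, Plvap, Gh, Ccl12, Ccl5 and Srgn. Prl and Gh, the hormones of lactotrophs and somatotrophs, were at 21.2 and 54.9 CPM in melanotrophs and at 15312 and 16218 CPM in the others. At 2000 UMIs a Gh UMI was seen in 7.56% of melanotrophs and in 11.8% of the endothelial, immune and connective tissue barcodes. The highest melanotroph held 12 Gh UMIs at that depth, and the source of this trace was not tested. Tshb had 1 UMI in melanotrophs and 1251 in the others. Plvap and Egfl7, genes of endothelium, and Srgn, a proteoglycan of blood cells, had 2, 3 and 3 UMIs in melanotrophs.

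**Figure D2:**
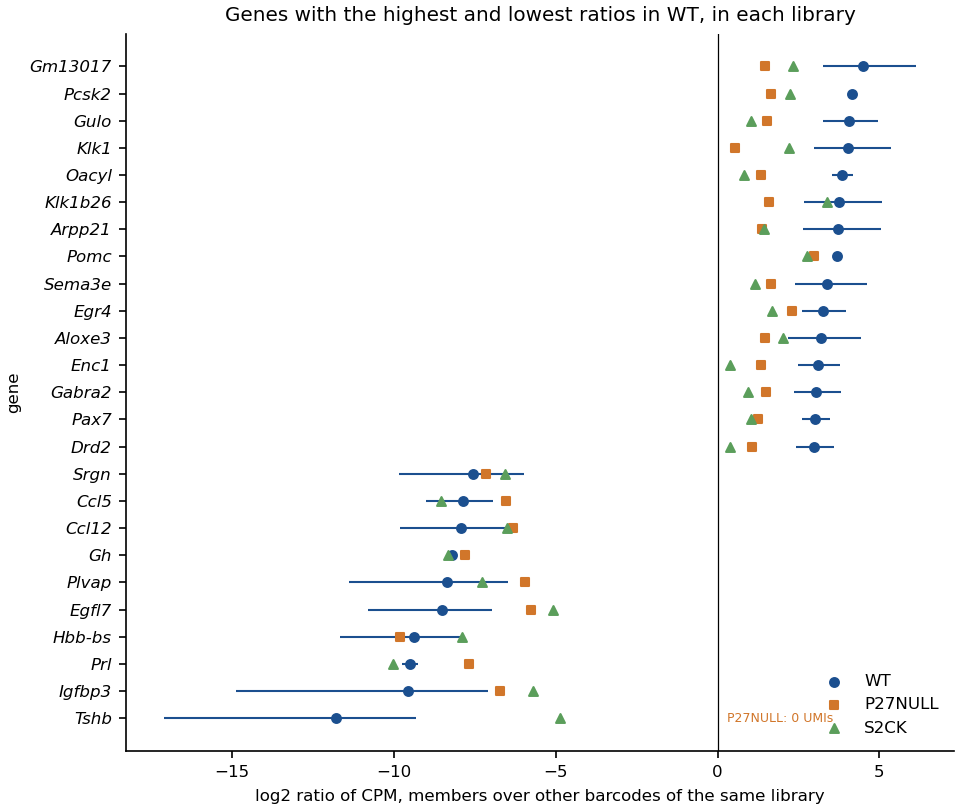
The x axis is the log2 ratio of CPM, members over the other barcodes of the same library, for the 15 highest and 10 lowest genes of WT on the y axis; circles are WT with the 95% counting interval as a line, squares P27NULL and triangles S2CK. All 15 highest genes lie right of 0 in all 3 libraries, with smaller ratios in P27NULL and S2CK than in WT, and the 10 lowest lie left of 0 wherever a UMI was counted.

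The same rule and ratio were applied within each of the other libraries. In P27NULL 3.13% of 11518 genes were at 2-fold or more higher and 11.5% lower, and in S2CK 3.11% of 11752 genes were higher and 14.5% lower. Of 504 genes higher in WT and past the filter in P27NULL, 150 were also called there, 29.8% of the WT genes and 67.9% of the 221 called in P27NULL. In S2CK 152 of 504 were called, 30.2% of the WT genes and 67.0% of the 227 called there. The share of the WT genes depended on the Pomc limit of the rule. With the limit at 3% it was 58.6% in P27NULL and 42.7% in S2CK, and with the limit at 10% it was 2.46% and 9.02%. A limit of 10% puts barcodes with Pomc from 5 to 10% of UMIs into the comparison group. Melanotrophs were then 49.6% of WT barcodes, and 122 genes were called higher in WT. The part of this in the lower shares was not tested. The lower genes were shared more fully, 832 of 1095 (76.0%) in P27NULL and 879 of 1130 (77.8%) in S2CK.

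Of the 15 highest genes, 14 were past 2-fold in P27NULL and 11 in S2CK, and both counts include Pomc and Pcsk2, which the rule selects on in every library. Klk1, with a log2 ratio of 4.03 in WT, was at 0.52 in P27NULL and 2.22 in S2CK. Drd2 went from 2.97 to 1.06 and 0.38, Enc1 from 3.09 to 1.35 and 0.37, and Oacyl from 3.85 to 1.34 and 0.80. Oacyl itself lay at 587 CPM in the WT members, against 883 and 497 CPM in the members of P27NULL and S2CK. What the comparison barcodes held also differed: barcodes with 2 or more Pcsk2 UMIs were 9.29% of the others in WT, 18.9% in P27NULL and 10.8% in S2CK, and the part of this in the smaller ratios was not tested.

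Gene lists were read on the same ratio. Over the 12 lists together 47 genes were at 2-fold or more higher and 38 at 2-fold or more lower. The lists and their members were chosen with results of these data known, so their counts describe the cells and are no independent evidence. Each list is to be read beside the 5.1% of all genes that were higher, the 11.9% that were lower and the median of -0.11. The melanotrophs gave most of the UMIs behind the filter, so a low gene passed it more easily where it was high in them.

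**Figure D3:**
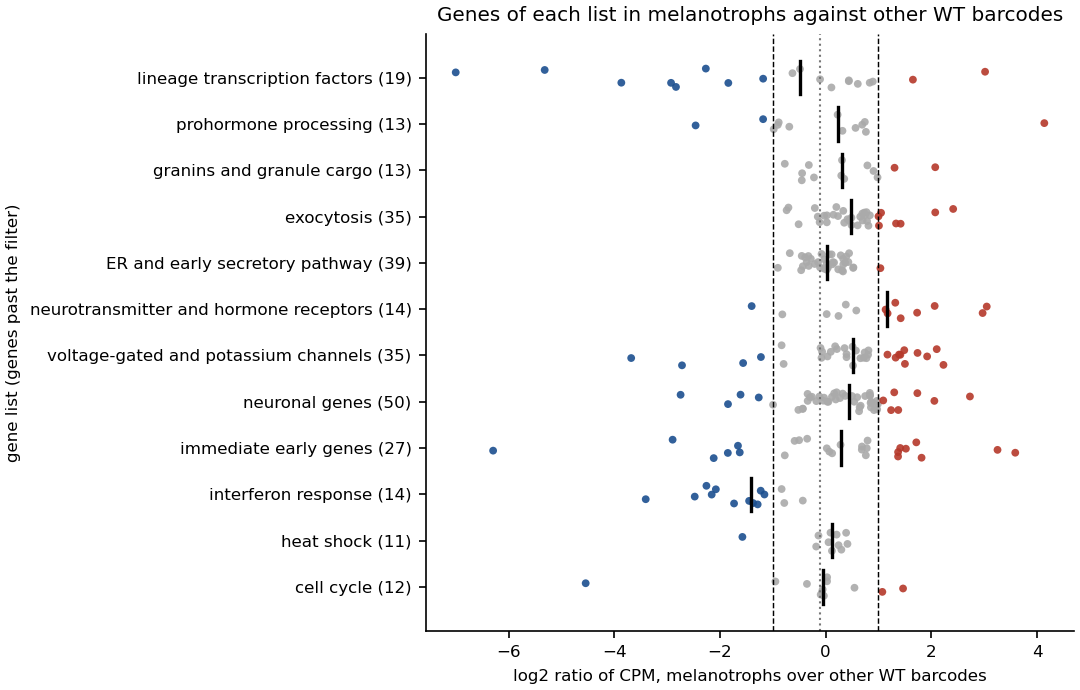
Each point is 1 gene, placed by its log2 ratio of CPM in melanotrophs over other WT barcodes on the x axis, in rows by gene list with the number of genes past the filter; red points are at 2-fold or more higher, blue at 2-fold or more lower, black bars are list medians, dashed lines 2-fold, and the dotted line the median of all genes at -0.11. Receptors have the highest list median (1.15) and interferon response genes the lowest (-1.41).

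Among lineage transcription factors the melanotrophs stood out by Pax7 on the high side and by factors of other lineages on the low side. Of 24 listed factors 19 passed the filter, with 2 higher and 8 lower and a median log2 ratio of -0.49. Tbx19, the T-box activator of Pomc, was at 78.3 against 43.9 CPM, a log2 ratio of 0.83 (0.51 to 1.17), and Six3, a homeobox factor, at 312 against 168 CPM. The anterior lobe factor Pou1f1 was at 0.324 against 41.6 CPM, and Isl1 at 3.89 against 27.7 CPM. Nr3c1, the glucocorticoid receptor, was at 5.35 against 78.1 CPM, a log2 ratio of -3.87 (-4.45 to -3.32).

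Sox2, a stem cell factor also found in endocrine cells, was detected in the melanotrophs at 46.2 CPM, in 19.6% of barcodes, and at 105 CPM in the others. Its log2 ratio was -1.18 (-1.44 to -0.93) against all other barcodes and -2.80 against those with stem cell markers. Against the anterior lobe endocrine barcodes it was 1.86 (0.80 to 3.19), so the direction turned with the comparison. At 2000 UMIs Sox2 was seen in 9.41% of melanotrophs and in none of the 51 endothelial, immune and connective tissue barcodes. The stem cell factor Sox9 had 18 UMIs in the melanotrophs, 2.92 CPM, against 22.2 CPM in the others.

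In prohormone processing, 1 of 13 genes past the filter was higher and 2 lower, with a median of 0.23. These shares, 7.69% and 15.4%, were near those of all genes, 5.1% and 11.9%. The higher gene was Pcsk2, which the rule used. Pcsk1, encoding PC1/3, was at 30.3 against 68.9 CPM, a log2 ratio of -1.18 (-1.50 to -0.86), and Qpct, which forms pyroglutamate at peptide ends, at 9.56 against 52.7 CPM. Scg5 encodes 7B2, the chaperone of PC2, and was at 922 against 623 CPM (0.57), but it lay below the anterior lobe endocrine barcodes (-0.48, interval -0.60 to -0.37). The amidating enzyme Pam was at 939 against 554 CPM, Cpe, which trims basic residues, at 546 against 338 CPM, and Pcsk1n, the precursor of an inhibitor of PC1/3, at 5677 against 3396 CPM, all under 2-fold.

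Among granins and granule cargo 2 of 13 genes were higher and none lower, with a median of 0.31. The 2 were Resp18 and Syt1, and Syt1 is counted on the exocytosis list as well. Resp18, a granule protein, was at 2144 against 868 CPM, a log2 ratio of 1.30 (1.23 to 1.37). Against anterior lobe endocrine barcodes alone its ratio was -0.02 (-0.11 to 0.07), so it lay above the mixture and level with those hormone cells. Chga, a granin, was at 2070 against 1048 CPM (0.98) and lay below the anterior lobe endocrine barcodes (-0.62, interval -0.69 to -0.55). Scg2 and Chgb were lower in melanotrophs than in those barcodes, with log2 ratios of -2.27 and -1.96. Over the list, 1 gene was higher and 3 were lower than in those barcodes, with a median of -0.15. Over all 8699 genes in that comparison 15.2% were higher and 3.64% lower, with a median of 0.20. Against barcodes with stem cell markers the list's median was 3.77, with 10 of 13 genes higher, where 17% of all genes were higher and 16.8% lower.

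Exocytosis genes leaned high against the mixture of other WT barcodes. Of 35 genes 7 were at 2-fold or more higher and none lower, with a median of 0.49. Over all genes 5.1% were higher and 11.9% lower, with a median of -0.11. Against the anterior lobe endocrine barcodes 6 of 32 were higher and 3 lower, with a median of 0.19. Over all 8699 genes in that comparison 15.2% were higher and 3.64% lower, with a median of 0.20. The list's median was thus level with that of all genes there. The 7 genes higher against all other WT barcodes were Syt1, Rab27b, Unc13a, Cplx2, Rph3a, Sv2a and Snap91. Syt1, the calcium sensor of fast vesicle fusion, was at 452 against 107 CPM, a log2 ratio of 2.07 (1.88 to 2.27), and it stayed higher against anterior lobe endocrine barcodes (2.63, interval 2.18 to 3.12). Rph3a, an effector of Rab3 on vesicles, was at 12.3 against 2.31 CPM (2.41, interval 1.13 to 4.08), and Unc13a, a priming factor, at 25.6 against 10.2 CPM (1.33). Syt1 and Rph3a were the genes whose intervals lay wholly past 2-fold. Rab3b was at 50.4 against 84.1 CPM.

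By contrast, genes of the endoplasmic reticulum and early secretory pathway did not separate the groups at 2-fold. All 39 listed passed the filter, 1 was higher, none was lower and the median was 0.02. The higher gene was Creb3l2, a membrane-bound factor of the secretory stress response, at 75.9 against 37.0 CPM (1.04, interval 0.69 to 1.40).

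Receptors had the highest list median, at 1.15, with 8 genes higher and 1 lower of the 14 that passed the filter, out of 53 listed and 32 with a row. Many receptors held too few UMIs to pass, and with the limit lowered to 1 UMI the median was 0.13. It was 0.22 with the Pomc limit of the rule at 10%. Drd2, the dopamine receptor through which secretion is held down, was at 97.9 against 12.5 CPM, a log2 ratio of 2.97 (2.42 to 3.59). The GABA-A receptor subunits Gabra2, Gabrb1, Gabra4 and Gabrg1 were among the 8. Gabra2 was at 68.9 against 8.32 CPM (3.05, interval 2.37 to 3.82), and Gabrb1 at 25.1 against 6.01 CPM (2.06, interval 1.247 to 3.01). Gabra4 and Gabrg1 were at 10.4 and 7.29 CPM, with log2 ratios of 1.32 and 1.17 whose intervals reached down to 0.30 and 0.01. The glutamate receptor subunits Grin1 and Gria2 were at 52.2 and 113 CPM against 15.7 and 51.3 CPM.

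Receptors were also compared with other hormone cells. Of 12 that passed the filter in that comparison 7 were higher than in anterior lobe endocrine barcodes and none was lower, with a median of 1.33. The melanotrophs held 6169078 UMIs and the anterior lobe endocrine barcodes 549235, so these 12 passed mainly through the melanotroph counts, and their count and median are given as a description only. The shares over all 8699 genes there were 15.2% higher and 3.64% lower, with a median of 0.20. Drd2 was above them by a log2 ratio of 3.16 and Gabra2 by 5.24. The lower receptor in the main comparison, P2rx4, an ATP-gated channel, was at 8.75 against 23.1 CPM.

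Channel genes lay on both sides. Of 35 voltage-gated and potassium channel genes that passed the filter, 10 were higher and 4 lower, and the median was 0.52. Scn2a, a neuronal sodium channel, was at 45.5 against 9.71 CPM (2.23, interval 1.59 to 2.94), Kcnc1, a fast potassium channel, at 31.8 against 7.40 CPM (2.10, interval 1.37 to 2.94), and Kcnj6, a channel gated by G proteins, at 35.5 against 10.6 CPM (1.74, interval 1.12 to 2.43). These 3 were the genes wholly past 2-fold. Kcnk2, a stretch-sensitive background potassium channel, had 150 UMIs in melanotrophs and 675 in the others, that is 24.3 against 312 CPM (-3.68, interval -3.95 to -3.42). Cacna1d, an L-type calcium channel subunit, was among the more abundant, at 156 against 105 CPM.

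Neuronal genes showed members on both sides too. Of 50 that passed the filter 7 were higher and 4 lower, with a median of 0.43. Rbfox3, whose protein is the neuronal nuclear marker NeuN, was at 52.2 against 7.86 CPM (2.73, interval 2.03 to 3.53), Camk2a, a calcium-dependent kinase, at 30.8 against 7.40 CPM (2.06, interval 1.32 to 2.89), and Camk2n1, an inhibitor of that kinase, at 326 against 133 CPM (1.30, interval 1.12 to 1.48). The genes Stmn2 and Gap43, linked to axon growth, were at 5.51 and 10.4 CPM against 37.0 and 24.96 CPM. Meg3, an imprinted noncoding RNA, was at 1608 against 810 CPM, just short of 2-fold (0.99).

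Immediate early genes, which neurons and endocrine cells switch on within minutes of stimulation, split by member. Of 27 that passed the filter 8 were higher and 6 lower, with a median of 0.28. Egr4 had 544 UMIs in melanotrophs and 20 in the others, that is 88.2 against 9.25 CPM (3.25, interval 2.61 to 3.98), and Egr3 16.7 against 1.39 CPM (3.59, interval 2.002 to 5.89). Nr4a2 and Nr4a1, nuclear receptors induced by cyclic AMP, were at 164 and 133 CPM against 46.7 and 51.3 CPM. Dusp1, a phosphatase of MAP kinases, was at 427 against 149 CPM (1.52, interval 1.35 to 1.69).

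The 6 lower members were Jun, Ier3, Klf2, Klf4, Klf6 and Zfp36. Jun was at 114 against 411 CPM (-1.85, interval -2.00 to -1.71), and Klf2, a factor of endothelium and lymphocytes, at 1.78 against 140 CPM. The most abundant members lay within 2-fold, with Fos higher at 1228 against 762 CPM, Junb at 1053 against 1004 CPM and Ier2 lower at 1068 against 1513 CPM. Against anterior lobe endocrine barcodes 12 of 25 were higher and 1 lower, and the median was 0.84. Over all 8699 genes there 15.2% were higher and 3.64% lower, with a median of 0.20. Low genes passed that filter more easily where they were high in melanotrophs, so the count and median are a description only.

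Interferon response genes were low in melanotrophs against the mixture. Of 14 that passed the filter none was higher and 11 were lower, with a median of -1.41. Bst2, an antiviral membrane protein, was at 23.0 against 244 CPM (-3.41, interval -3.68 to -3.14), and Isg15, a ubiquitin-like protein, at 27.6 against 132 CPM. Bst2 was seen in 66.7% of the endothelial, immune and connective tissue barcodes at 2000 UMIs and in 3.11% of melanotrophs. Against the anterior lobe endocrine barcodes the list's median was 0.68 on 11 genes, with 3 higher and none lower. Over all 8699 genes there the median was 0.20, with 15.2% higher and 3.64% lower. These low genes passed mainly through the melanotroph counts, so the count and median are a description only.

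Heat shock and cell cycle genes were close to the comparison group. Of 11 heat shock genes 1 was lower, Hspb1, at 192 against 572 CPM, and the median was 0.12. Of 12 cell cycle genes that passed the filter 2 were higher and 1 lower. The higher ones were Ccne2 and Mcm2, which act at the start of S phase, at 10.2 and 10.7 CPM, with intervals that reached down to 0.40 and 0.14 on the log2 scale. Cdkn1c, the CDK inhibitor p57, was the lower gene, at 2.76 against 64.3 CPM. Its relative Cdkn1b, which encodes p27, was at 33.2 against 64.3 CPM, and the proliferation marker Mki67 had 10 UMIs in all melanotrophs.

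Variation among the melanotrophs was measured after thinning each barcode to 2000 UMIs, which 1190 of them reached. The ratio of variance to mean is 1 where a gene varies by counting alone. Of 2389 genes with a mean of 0.1 or more UMI, 80 had a variance at least 25% above the mean (3.35%), and the median ratio was 1.02. These 80 are called variable below. The 20 highest were Cga, Pomc, Malat1, Mt1, Apoe, Gh, Pcsk1n, Tmsb4x, Ier2, Ifi27l2a, Pcsk2, Gm13889, Chga, mt-Co1, H2afz, Fth1, Junb, Jun, Fos and Pam. Of the variable genes that were measured in both libraries, 60 of 76 were also variable in P27NULL (78.9%, and 68.2% of its 88) and 46 of 70 in S2CK (65.7%, and 78.0% of its 59).

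Some of these genes were found in few barcodes. Cga, the α-subunit of the gonadotropins and thyrotropin, had the highest ratio, 155, with 71.4% of its UMIs in 1 barcode. Gh was detected in 7.56% of barcodes and Apoe, abundant in glia and macrophages, in 12.9%. Mt1, a metallothionein, was instead spread over the cells, with UMIs in 84.4% of barcodes, a median of 3, a 90th percentile of 11 and a ratio of 6.34. Its ratio was 6.42 in P27NULL and 5.29 in S2CK.

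Secretory genes varied in part. Variable were 4 of 11 granin and cargo genes (Chga, Chgb, Scg2 and Resp18), 3 of 7 processing genes (Pcsk2, Pcsk1n and Pam), 1 of 34 endoplasmic reticulum genes (Manf, a stress-induced secreted factor) and none of 14 exocytosis genes. Over all genes 3.35% were variable. The lists differ in abundance, and a difference between cells is harder to see at low means. Pcsk1n, Pcsk2, Resp18 and Chga had means of 11.9, 8.28, 4.38 and 4.01 UMIs. The exocytosis genes Syt1, Cplx2 and Snap25 had means of 0.97, 0.42 and 0.28 UMI. Sec61g, at a mean of 4.91 UMIs, had a ratio of 1.15 and was not variable. Pcsk1n gave a 10th percentile of 5, a median of 11 and a 90th percentile of 19 UMIs, with a ratio of 2.57. Chga gave 1, 3 and 8 UMIs, with a ratio of 2.22. Scg5, Cpe and Syt1 were close to counting noise, with ratios of 1.11, 1.10 and 1.11.

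Most identity and neuronal genes were near counting noise as well. No lineage transcription factor of 9, no receptor of 6 and no channel of 3 was variable, and 2 of 22 neuronal genes were, Snhg11 and Meg3, both noncoding RNAs. Pax7 had a ratio of 1.08, Drd2 of 1.01, Esm1 of 1.04 and Megf11 of 1.02, all on means below 0.5 UMI, where a difference between cells is hard to see. Oacyl, at a mean of 1.06 UMIs, had a ratio of 1.30 and was variable. With Pomc and Pcsk2, which the rule used, 3 of the 8 melanotroph markers were variable, beside 3.35% of all genes.

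Activity genes varied more than most. Only the interferon list had a higher median ratio, 1.76, and it rested on 2 genes. Of 14 immediate early genes with enough UMIs 9 were variable, namely Fos, Jun, Junb, Jund, Egr4, Ier2, Nr4a2, Arc and Dusp1, and the list's median ratio was 1.36 against 1.02 over all genes. Ier2 gave 0, 2 and 6 UMIs at the 10th percentile, the median and the 90th percentile (ratio 2.498), and so did Fos (ratio 1.82). Jun was detected in 16.6% of barcodes at this depth, with 74.4% of its UMIs in the highest 10% of barcodes.

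Summed over the list, a melanotroph held 12 immediate early gene UMIs of 2000 at the median, from 0 to 38, with a 10th percentile of 5 and a 90th percentile of 22. The sums formed 1 broad peak. The rank correlations between pairs of these genes across the 1190 barcodes were low, with a median of 0.05 over 91 pairs. The highest were Fos with Ier2 (0.26), Junb with Ier2 (0.25), Fos with Junb (0.24) and Jun with Ier2 (0.21). These barcodes share 1 library and 1 dissociation, and counts this sparse hold correlations down.

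A sum of 10 or more was reached by 66.2% of melanotrophs (788 of 1190, interval 63.5 to 68.9%) and by 55.3% of the other WT barcodes that were deep enough (215 of 389). The same share was 38.4% of the members deep enough in P27NULL (36.6 to 40.3%) and 24.4% in S2CK (22.9 to 26.0%), where the median sums were 7 and 5 UMIs. In the other barcodes of those libraries it was 60.8% and 49.7%. Too shallow and left out were 890 members of P27NULL and 38 of S2CK, against 55 of WT. The intervals cover counting error over the barcodes of 1 library each. Genotype, sex and library preparation cannot be told apart.

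**Figure D4:**
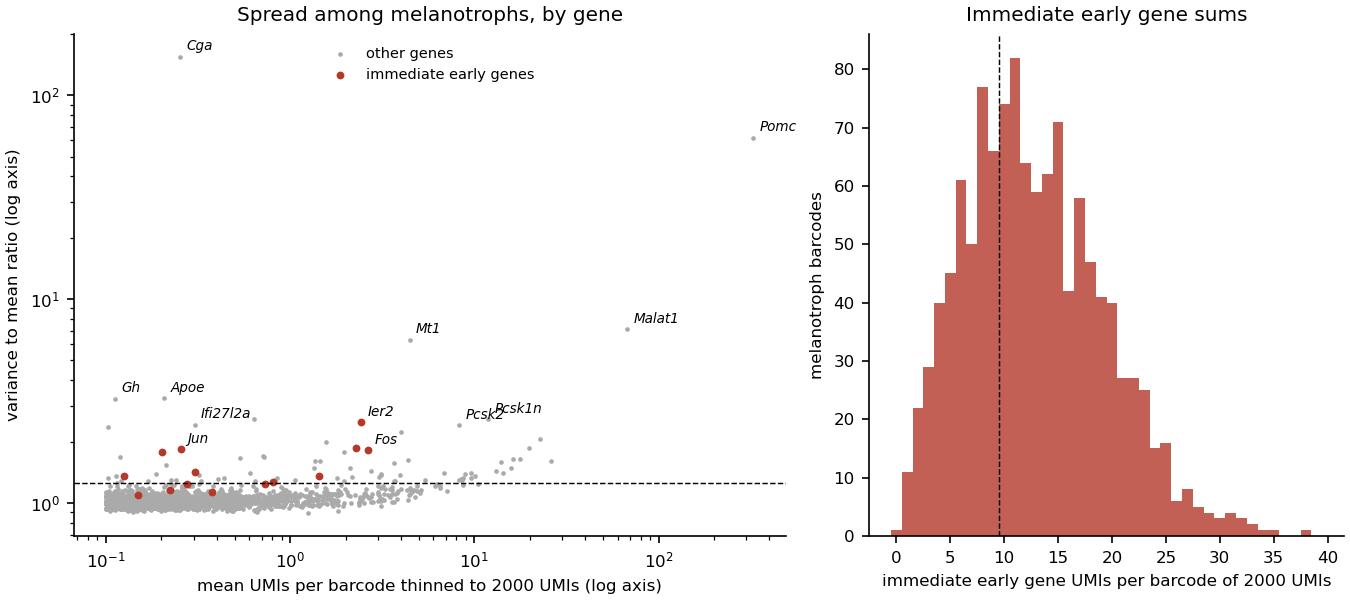
Left, each point is a gene, with its mean UMIs over 1190 melanotrophs thinned to 2000 UMIs on the x axis and its variance to mean ratio on the y axis (both log axes); immediate early genes are red, and the dashed line marks a variance 25% above the mean. Right, the number of melanotroph barcodes (y axis) by their immediate early gene UMIs (x axis), with a dashed line at the limit of 10; the sums form 1 broad peak around a median of 12.

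A small set of melanotrophs held interferon response RNA. The median barcode had 1 UMI of the list of 19 genes, and 43 of 1190 barcodes (3.61%, interval 2.63 to 4.84%) had 5 or more, up to 28. In these 43 barcodes lay 82.1% of the Isg15 UMIs (55 of 67), 95.2% of Ifit3 (20 of 21) and 80.8% of Ifit1 (21 of 26), but 10.5% of Ifi27. Of the Pomc and Pcsk2 UMIs 4.28% and 4.46% lay in these 3.61% of barcodes. Of the members deep enough, the share was 0.540% in P27NULL (0.296 to 0.905%) and 1.30% in S2CK (0.919 to 1.78%). Of the other barcodes it was 12.1% in WT, 8.68% in P27NULL and 21.5% in S2CK. The list defines these barcodes, so its own values in them are a description.

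The melanotrophs were then ordered by Pomc share, to see which genes went along with it. Pomc was left out before each barcode was thinned to 2000 UMIs, which 1174 reached, and 1455 genes had a mean of 0.2 or more UMI. The highest rank correlations with Pomc share were those of Pcsk2 (0.50), which the rule also used, Chga (0.44), Resp18 (0.40), Mt3, a metallothionein of neurons (0.40), and Gnas, which encodes a stimulatory G protein subunit (0.39). The lowest were those of Pcsk1n (-0.27), Ier2 (-0.27), Ly6h, a membrane-anchored modulator of acetylcholine receptors (-0.25), H3f3b, a histone (-0.23), and Gng3, a G protein subunit of neurons (-0.22). The median over genes was close to 0, 18 genes lay at 0.2 or more and 6 at -0.2 or less. Pomc share itself went with depth, with a rank correlation of 0.57 with total UMIs across the same barcodes, and depth's part was not tested beyond the split that follows.

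Within the 587 deeper barcodes the correlations were 0.36 for Chga and 0.40 for Resp18, and within the shallower ones 0.41 and 0.32. For Pcsk1n they were -0.26 and -0.09. The same measure in P27NULL (2217 barcodes) gave 0.34 for Pcsk2, 0.22 for Chga and 0.29 for Resp18, and in S2CK (2924 barcodes) 0.31, 0.28 and 0.37. The negative correlations of WT were weaker or absent there, at 0.08 and 0.01 for Pcsk1n and at 0.06 and -0.01 for Ier2. Pax7, Drd2, Six3 and Six6 all lay between -0.05 and 0.04 in WT.

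In 4 equal groups by Pomc share, with median shares of 8.95, 12.9, 17.6 and 25.02%, granins and genes of the early secretory pathway, summed by list, were higher at each step on a CPM scale that leaves Pomc out. Granins and granule cargo summed to 6338, 8036, 9157 and 11007 CPM, 1.74-fold from the lowest to the highest group (counting interval 1.67 to 1.81). Chga went from 1417 to 3480 CPM, and Resp18 from 1859 to 3500. Genes of the endoplasmic reticulum and early secretory pathway were 1.40-fold higher in the highest group, with Manf at 231, 284, 380 and 519 CPM and Sec61b, a subunit of the translocation channel, at 838 in the lowest and 1386 in the highest group. Prohormone processing genes, summed without Pcsk2, went from 10934 to 10164 CPM, 0.930-fold. Most of that sum was Pcsk1n, which went from 7813 to 5865 CPM. Cpe went from 474 to 881 CPM, Pam from 1061 to 1290 and Scg5 from 978 to 1285. Exocytosis genes changed by 1.03-fold and neuronal genes by 0.965-fold. The rise was not confined to secretory lists. The 6 melanotroph markers outside the rule were 1.54-fold higher in the highest group and interferon response genes 1.53-fold, both higher at each step.

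Activity and receptor genes, summed by list, went the other way in WT, though not every member did. Immediate early genes summed to 8257 CPM in the lowest group and 6544 in the highest, 0.793-fold, and receptors to 891 and 602, 0.676-fold. Jun went from 277 to 54.6 CPM and Ier2 from 1742 to 857, whereas Nr4a2 went from 121 to 276 and Dusp1 from 410 to 572. The receptor Drd2 was at 102 CPM in the lowest and 119 CPM in the highest group, with overlapping intervals. Pcsk1n went from 7813 to 5865 while Pcsk2 went from 3369 to 7183, and Pcsk2 belongs to the rule. The lowest group had a median of 3389 UMIs a barcode before thinning and the highest 5851, and the part of depth in these steps was not tested.

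**Figure D5:**
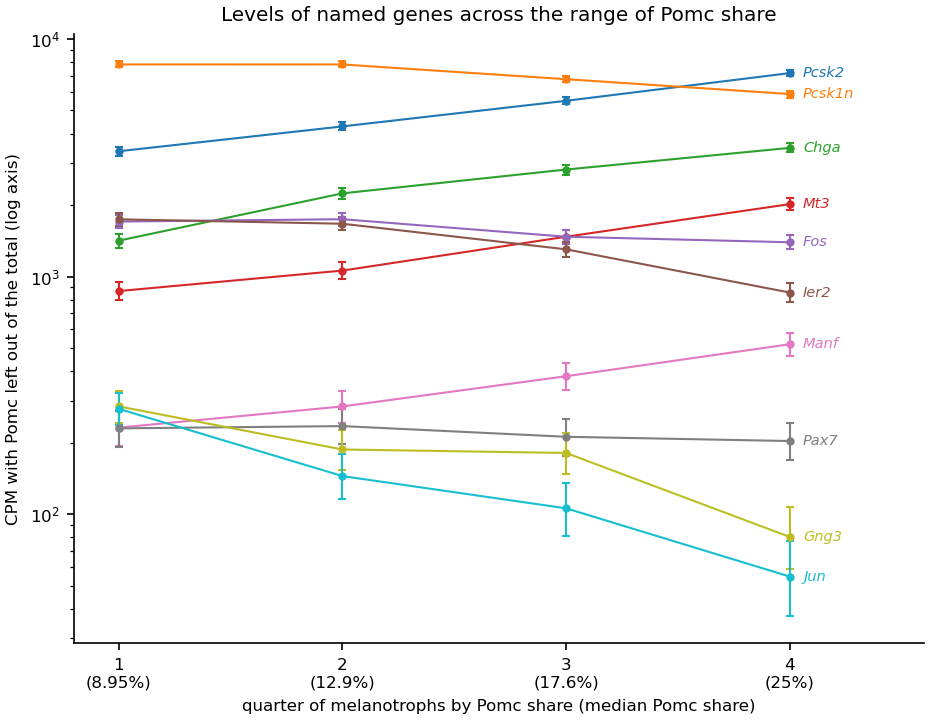
The x axis gives 4 equal groups of melanotrophs by Pomc share with their median share, and the y axis the level of each named gene in CPM with Pomc left out of the total (log axis), with bars for the 95% Poisson interval. Pcsk2, Chga, Mt3 and Manf are higher at every step, Pcsk1n, Ier2, Jun and Gng3 are lower in the highest than in the lowest group, and Pax7 stays between 203 and 235 CPM.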

How the data were processed

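Single cell libraries of dissected ILs were made with the Chromium Single Cell 3′ kit. Per the labels and methods, the authors used Cell Ranger 3.0.2 (with STAR 2.5.1b) on Ensembl GRCm38 release 89, and deposited 1 table per genotype of raw UMI counts, genes by barcodes. Cells with fewer than 50 genes or over 10% mitochondrial reads were stated to be removed in R 3.6.0 with Seurat 3. The lowest WT barcode had 213 genes and 502 UMIs, whereas no barcode of P27NULL or S2CK had under 502 genes or 1002 UMIs, and the filter behind each table was not tested. Each table, and not that of WT alone, held fewer barcodes than the cell number the study gives for its genotype. No column belonged to another sample.

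The deposited counts were used as they stand, with no doublet removal. Barcodes were grouped by the Pomc and Pcsk2 rule, UMIs were summed by group and scaled to CPM, and log2 ratios were given exact conditional 95% intervals, CPM exact Poisson intervals and shares Clopper-Pearson intervals, which cover counting error only. Genes needed 50 UMIs in both groups together, and a call meant 2-fold or more. Other barcodes were classed by 3 or more UMIs from 2 or more markers of 1 type. Thinning drew 2000 UMIs without replacement, and 55 melanotrophs and 386 other WT barcodes were too shallow. So were 890 members of P27NULL and 38 of S2CK. Genes were named by rule: the 15 highest and 10 lowest ratios with 200 or more UMIs, list members, the 20 highest variance to mean ratios, and the 5 highest and 5 lowest correlations with Pomc share. The members and lists were chosen with earlier results of these data known. Some list members are counted but not reported here by name. RefSeq entries on GRCm38.p6 matched 14936 of 15948 gene symbols (93.7%), and chromosome positions and promoters come from it. Overlapping and antisense genes cannot be told apart where the counting did not use strand. The computations were tested on simulated data and run with Python 3.11.15, numpy 2.4.6, scipy 1.17.1 and pandas 2.3.3.
The alternatives changed the limits of the rule, the barcodes kept, the totals behind CPM, the weight of each cell, the filter, the comparison barcodes and the thinning, and their effect is given in the closing section.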

Additional observations from a re-analysis of the deposited data

How the results depend on the processing

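Depth set the limits here. Low genes such as Gabrg1 and Npas4 rest on few UMIs, and 1 library a genotype gives no spread between samples. No paired analysis was possible because each genotype is a single library, so the groups share only 1 replicate number. The last comparisons below, against barcodes with markers of a named type and against anterior lobe endocrine barcodes, were chosen after seeing the data. In each case the cause of the change was not tested.

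With Pomc at 3% or more of UMIs, the shares of higher genes that repeated were 58.6% in P27NULL and 42.7% in S2CK, and of lower genes 80.6% in P27NULL. With Pomc at 10% or more, the melanotrophs were 49.6% of barcodes, 122 genes were higher overall and 14 in the lists, and the medians were 0.15 for exocytosis, 0.16 for channels and 0.012 for neuronal genes. The granin step was then 1.49-fold, and the repeating shares 2.46% and 9.02% of higher genes and 52.0% and 61.9% of lower genes. With 4 or more Pcsk2 UMIs, the melanotrophs were 58.6% of barcodes, and the shares were 22.3% and 17.5% of higher genes and 73.5% of lower genes in S2CK. With only barcodes of 500 genes and 1000 UMIs kept, melanotrophs were 66.4%.

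Without Pomc, mitochondrial and ribosomal protein genes in the totals, 934 genes were higher overall and 85 in the lists, the medians were 0.82 for exocytosis, 0.36 for the endoplasmic reticulum, 0.85 for channels and 0.45 for heat shock, and 80.2% and 83.1% of lower genes repeated. With equal weight for each cell, 770 genes were higher overall and 79 in the lists, the exocytosis median was 0.84, and 37.2% and 40.2% of higher and 67.7% and 72.7% of lower genes repeated. A filter of 10 UMIs gave 955 higher and 2694 lower genes, with 65 lower in the lists. A filter of 1 UMI gave 1400 and 3900, with 78 lower in the lists, and 78.6% of lower genes repeated in P27NULL.

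Thinning to 1000 UMIs left 32 variable genes. Without thinning, 91.7% of melanotrophs held 10 or more immediate early gene UMIs and 12.9% held 5 or more interferon UMIs. Against barcodes with markers of a named type, 903 genes were higher overall and 91 in the lists, and the medians were 0.99 for exocytosis, 2.13 for receptors, 1.14 for channels, 0.99 for neuronal genes and 0.45 for heat shock. Against anterior lobe endocrine barcodes, 1322 genes were higher and 317 lower, with 24 lower in the lists. The medians were 0.19 for exocytosis, 0.14 for channels and 0.68 for interferon genes, beside 0.20 for all genes. There the log2 ratios of Resp18 (-0.021), Sox2 (1.86), Chga (-0.62) and Scg5 (-0.48) turned direction. The other 514 of 518 single-gene values under the alternatives kept the reported sign.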

Other observations

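Barcodes that met 1 limit of the rule but not the other differed from the melanotrophs. The 54 WT barcodes with Pomc at 5% or more and 0 or 1 Pcsk2 UMI had Neurod1 at 71.7 CPM, Crhr1 at 45.6 CPM and Tbx19 at 117 CPM, against 0.648, 6.81 and 78.3 CPM in the melanotrophs, and Pax7 at 84.7 CPM against 180 CPM. The 72 barcodes with 2 or more Pcsk2 UMIs and Pomc under 5% had Pcsk1 at 203 CPM, and 55.6% of them carried markers of another cell type.

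Some genes of the members differed in level between the libraries, each of which is 1 genotype. Ccnd2, which encodes cyclin D2, was at 439 CPM in the melanotrophs of WT, at 116 CPM in the same class in P27NULL and at 15.5 CPM in S2CK. Dusp1 was at 427, 164 and 105 CPM, and Nr4a1 at 133, 58.6 and 21.9 CPM. Isg15 was at 27.6, 3.65 and 22.3 CPM. Vgf, the precursor of a granule peptide, was low in all 3, at 5.67, 9.53 and 9.04 CPM.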
